A study of Mus musculus with 6 samples.

Results

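The aminoacyl-tRNA synthetases and the scaffold proteins of their complex were followed as 39 genes, chosen by name from the 53465 genes of the deposited count table. Of the 39, 20 encode cytosolic enzymes or enzyme subunits, 16 encode mitochondrial enzymes and 3 encode accessory proteins of the multisynthetase complex (Aimp1, Aimp2 and Eef1e1). Among the 20 cytosolic genes, 8 encode enzymes of that complex and 12 encode free enzymes. Table identifiers were matched to GENCODE M21 symbols on GRCm38, where Mars1 carries its older name Mars.

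The measurement was ribosome profiling of ID8, a tumour-forming line derived from mouse ovarian surface epithelium, and the question was how translation differs when Nat10, an RNA acetyltransferase, is targeted. There were 6 libraries, 3 labelled WT from cells with a control guide (sgNC) and 3 labelled KO from cells with a guide against Nat10 (sgNat10), all treated with cycloheximide at 100 µg/mL for 2 minutes before lysis. The sources used here do not say whether replicates were separate cultures or whether the edited cells were a clone or a pool, and p-values measure the spread between these libraries only. Protected fragments report mRNA level and ribosome occupancy together, and a difference in one cannot be told apart from a difference in the other.

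Aminoacyl-tRNA synthetases attach each amino acid to its matching tRNA, the step that fixes the genetic code, and fall into a pair of structurally unrelated classes. In animal cytosol several of them are held by scaffold proteins in the multisynthetase complex, while others act free. Mitochondria import their own set, mostly encoded by separate genes, although Gars and Kars each supply both compartments. Many cytosolic synthetase genes are targets of ATF4, a transcription factor induced by amino acid shortage and other stresses, which binds a composite C/EBP and ATF element.

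The libraries held 1687466 to 3126208 counts and 8265 to 9437 genes with at least 1 count. Nat10 did not separate the labels, with WT counts of 168, 128 and 292 and KO counts of 315, 133 and 445 (log2 fold change -0.074, SE 0.48, edgeR adjusted p = 1.0), so a direction given below is between labels, with no loss of Nat10 measured. In each library the histogram of gene counts had a local peak, the modal count, at 15, 21 and 39 in WT against 42, 46 and 60 in KO, and counts under it are called low below. The ribosomal RNA-like gene Gm42418 took 12.4% to 13.9% of counts in WT against 9.32% to 10.1% in KO. With it and its neighbour Gm26917 left out of the fit the median log2 fold change of the tested synthetases was -0.14, as with them. Of the ovarian surface and mesothelial markers Krt18 and Krt19 fell and Msln rose in KO, each of them called. Their log2 fold changes were -1.74, -0.92 and 1.05 (edgeR adjusted p = 0.0195, 0.0044 and 0.0145). Krt8 was lower in every KO library than in any WT library but was not called (log2 fold change -2.42, SE 0.87, edgeR adjusted p = 0.51). Wt1 and Upk3b were present, and Krt7 had no count in 5 of 6 libraries. Summed levels were 0 to 14.5 CPM for 7 leukocyte markers, all 7 of them at 0 in at least 1 library, and 0 to 1.55 CPM for 3 endothelial markers. The 4 fibroblast markers summed to 42.8 to 85.4 CPM in WT and 4.03 to 18.4 CPM in KO, mostly from Col1a1 (67.1 ± 21.9 against 6.17 ± 8.78 CPM, SD, n = 3). Col1a1 stood at -3.44 on the log2 scale (SE 1.19, edgeR adjusted p = 0.48), and the part of these markers in the results was not tested.

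A composite-element core was present in the promoters of 5 cytosolic synthetases and of no mitochondrial one. RefSeq promoters on GRCm38.p6, running from 250 bases before to 50 after each start, were searched on both strands for TGATGNAA, and 30 of the 39 genes had an entry. Matches lay in 5 of 13 cytosolic enzymes with an entry (38.5%), in 0 of 14 mitochondrial enzymes and in 0 of 3 accessory proteins. Over all genes with a promoter 1219 of 27025 (4.51%) held a match in at least 1 of their promoters. For each of the 5 genes the match nearest the start is shown with 11 bases on each side, given 5′ to 3′ on the strand of the gene, and capitals mark the match, which lies on the opposite strand everywhere but in Yars.
Iars, chr13:49682126-49682155, plus strand: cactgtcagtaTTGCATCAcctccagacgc
Aars, chr8:111033840-111033869, plus strand: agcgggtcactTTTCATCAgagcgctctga
Gars, chr6:55037960-55037989, plus strand: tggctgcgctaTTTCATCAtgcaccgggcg
Tars, chr15:11399655-11399684, minus strand: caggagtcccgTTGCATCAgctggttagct
Yars, chr4:129189895-129189924, plus strand: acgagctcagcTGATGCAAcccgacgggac

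Counted from RefSeq's start, the Gars match began 30 bases and the Tars match 15 bases before it. Those of Iars, Yars and Aars began downstream at bases 8, 4 and 10, with the start base itself included in the count. Of the 5 enzymes, only Iars belongs to the multisynthetase complex. No entry was found for Cars, Hars, Hars2, Lars, Nars, Pars2, Rars, Vars or Wars. A match describes letters only and is not a measured binding site.

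Cytosolic synthetases had dense footprints and mitochondrial ones sparse footprints. Levels of different genes were compared as footprint density, CPM (counts relative to library size after TMM adjustment) per kilobase of coding sequence. The median density over the 20 cytosolic genes was 104.4 CPM per kb, with a range of 56.4 to 318.5 CPM per kb, and over the 16 mitochondrial genes it was 11.7 CPM per kb, with a range of 1.44 to 77.6 CPM per kb. In each of the 6 libraries the cytosolic median density exceeded the mitochondrial one, by 12.2-, 12.9- and 35.9-fold in WT and 6.99-, 22.6- and 7.72-fold in KO.

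**Figure D1:**
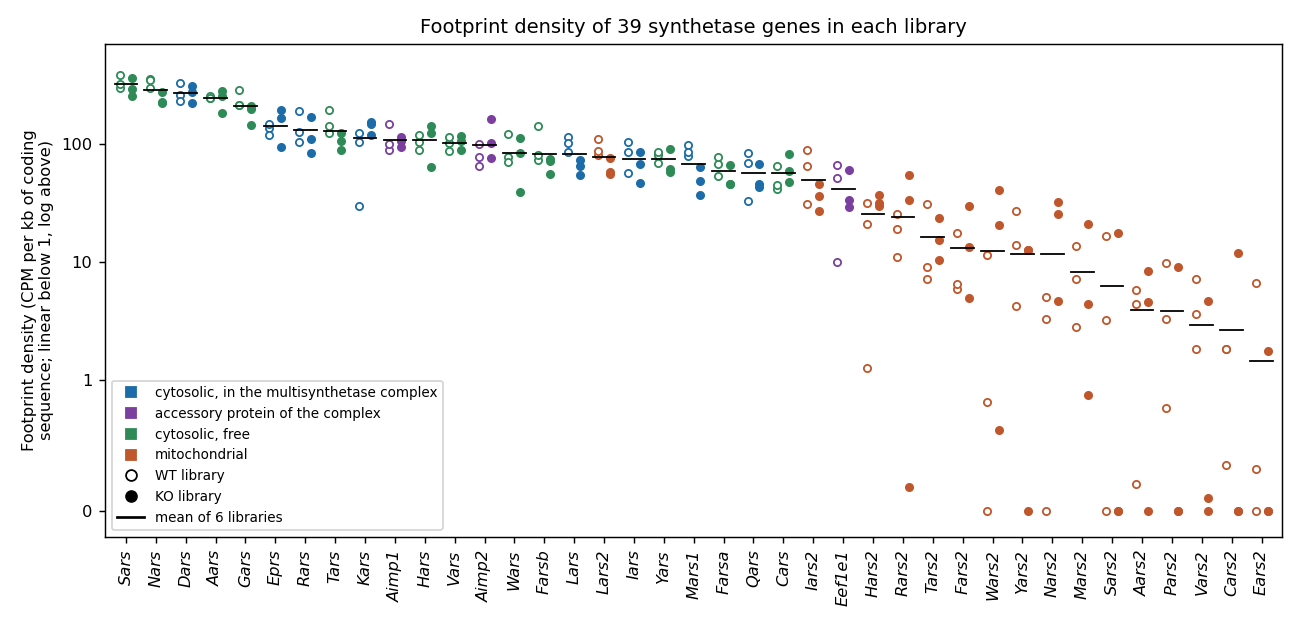
Footprint density of the 39 genes in CPM per kb of coding sequence (log axis above 1, linear below), with WT libraries as open points, KO libraries as filled points and a line at the mean of 6 libraries. Genes are ordered by that mean, from Sars at 318.5 to Ears2 at 1.44 CPM per kb, and points of mitochondrial genes spread down to 0.

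The densest member was Sars, the seryl enzyme, at 334 ± 46.1 CPM per kb in WT against 303 ± 53.4 CPM per kb in KO (SD, n = 3). Nars, the asparaginyl enzyme, followed at 334 ± 30.8 CPM per kb in WT against 239 ± 29.7 CPM per kb in KO. Dars, the aspartyl enzyme of the complex, had rank 3 at 271.5 CPM per kb over 6 libraries. These neighbours in the order do not differ beyond their spread, and the place of Dars rests on its coding length, since its density is 159 CPM per kb with its longest coding transcript.

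Next in density came Aars (alanyl) at 243 CPM per kb and Gars (glycyl) at 209.8 CPM per kb, both free enzymes. Eprs, the fused glutamyl and prolyl enzyme, had 141.6 CPM per kb, less per length than its high counts of 928 to 2795 would place it. The lowest cytosolic densities were those of Cars (cysteinyl) at 56.4, Qars (glutaminyl) at 56.7 and Farsa, the catalytic subunit of the phenylalanyl enzyme, at 59.2 CPM per kb. Its partner subunit Farsb, which assembles with Farsa in equal number, had 1.47 ± 0.35 times the density of Farsa in WT against 1.31 ± 0.27 times in KO (SD, n = 3), and was the denser subunit in all 6 libraries.

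Complex and free enzymes had overlapping densities. Their medians were 97.3 CPM per kb over 8 complex enzymes and 104.4 CPM per kb over 12 free enzymes. By structural class the medians were 73.8 CPM per kb over 9 class I genes and 169 CPM per kb over 10 class II genes of the cytosol, Eprs holding both kinds of domain. The ranges overlapped, at 56.4 to 129.6 CPM per kb in class I and 59.2 to 318.5 CPM per kb in class II. Dars, whose density rests on its coding length, is in class II. Of the scaffold proteins, Aimp1 had 107.5 and Aimp2 96.5 CPM per kb, close to the enzymes they hold, and Eef1e1, which anchors the methionyl enzyme, had 41.7 CPM per kb.

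Set against its own cytosolic counterpart, each mitochondrial gene had the lower mean density. In 17 pairs of genes for the same amino acid the cytosolic member was denser by a median of 7.99-fold, and it was denser in all 6 libraries in 16 of the pairs. The largest gap was between Eprs and Ears2, the mitochondrial glutamyl enzyme, at 98.3-fold, on Ears2 WT counts of 17, 1 and 0 and KO counts of 7, 0 and 0. The gaps of Aars over Aars2 (62.9-fold) and Sars over Sars2 (51.3-fold) came with mitochondrial counts of 0 to 79 and of 0 to 64.

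The pairs for leucine and isoleucine had the narrowest gaps. Lars2, the mitochondrial leucyl enzyme, had 77.6 CPM per kb against 81.9 CPM per kb for Lars, a 1.06-fold difference that kept its direction in 4 of 6 libraries. Iars2, the mitochondrial isoleucyl enzyme, had 48.8 CPM per kb against 73.8 CPM per kb for Iars, 1.51-fold less. With the longest coding transcript Iars2 has 35.3 CPM per kb.

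**Figure D2:**
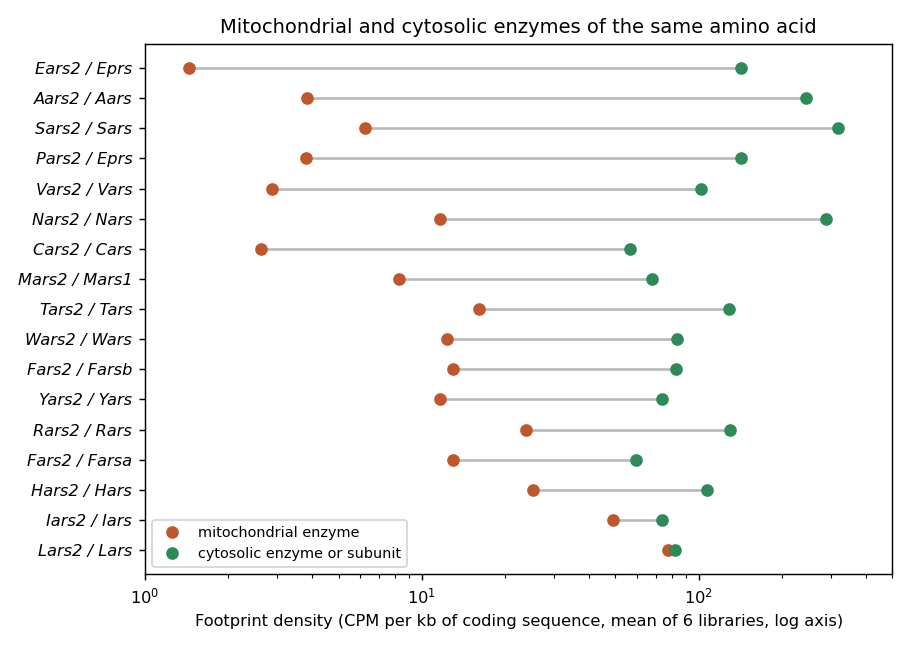
Mean footprint density over 6 libraries (CPM per kb of coding sequence, log axis) of each mitochondrial enzyme and of its cytosolic counterpart, 17 pairs joined by lines and ordered by fold. The gap runs from 98.3-fold for Ears2 and Eprs to 1.06-fold for Lars2 and Lars.

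Some of these values carry limits of sequence. A noncoding stretch of the Lars2 transcript, bases 3278 to 3349 after a coding part that ends at base 2905, is 98.6% identical over 72 bases to the abundant transcript Gm15564, which averaged 790.4 ± 40.7 CPM in WT against 459 ± 170.3 CPM in KO; its part in the Lars2 counts was not tested. For Iars 22.6% of 28-base coding windows also occur in the pseudogene Gm4849, and for Aimp2 40.2% of coding bases lie opposite exons of Eif2ak1, with strand use in counting not given. The shares of coding windows found in pseudogenes were 9.79% for Aimp1 and 5.47% for Kars. Over whole transcripts, 23.8% of the 28-base windows of Iars2 also occur in other genes on either strand, mostly opposite Rab3gap2. For Aars that share was 14.8%, mostly with Exosc6 on the same strand. Coding windows of Iars2 and Aars were shared at 0.0%, and the part of the shared stretches in their counts was not tested.

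No synthetase gene was called in the comparison of KO with WT. The test ran over all genes, with 8200 tested and 33 called at adjusted p under 0.05 (0.402%), 15 higher (0.183%) and 18 lower (0.22%) in KO. Of the 39 members 37 were tested, 0 were called, and the lowest adjusted p was 0.56 (edgeR quasi-likelihood test). An unadjusted p under 0.05 was reached by 3 members, Mars1, Lars and Nars, all lower in KO, which is 8.11% of those tested against 6.49% of all genes. DESeq2 called 0 members as well, its lowest adjusted p was 0.16, and its unadjusted p was under 0.05 for the same 3 genes; over all genes it called 234 (2.5%).

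Most point estimates lay below 0. Of 37 tested members 23 had a negative log2 fold change, KO minus WT, and the median was -0.14, against -0.016 and 50.96% negative over all tested genes. In 5 members (13.5%), Lars, Mars1, Gars, Nars and Lars2, every KO library lay below every WT library, against 7.93% of all tested genes, and in 0 members did every KO library lie above, against 6.94%. Taken in either direction, groups without overlap made up 13.5% of the members and 14.9% of all tested genes. Scaled to plain library totals, the median of all tested genes moved by 0.11 and the members divided into 18 positive and 19 negative. In both scalings 23 of 37 members lay below the median of all genes.

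**Figure D3:**
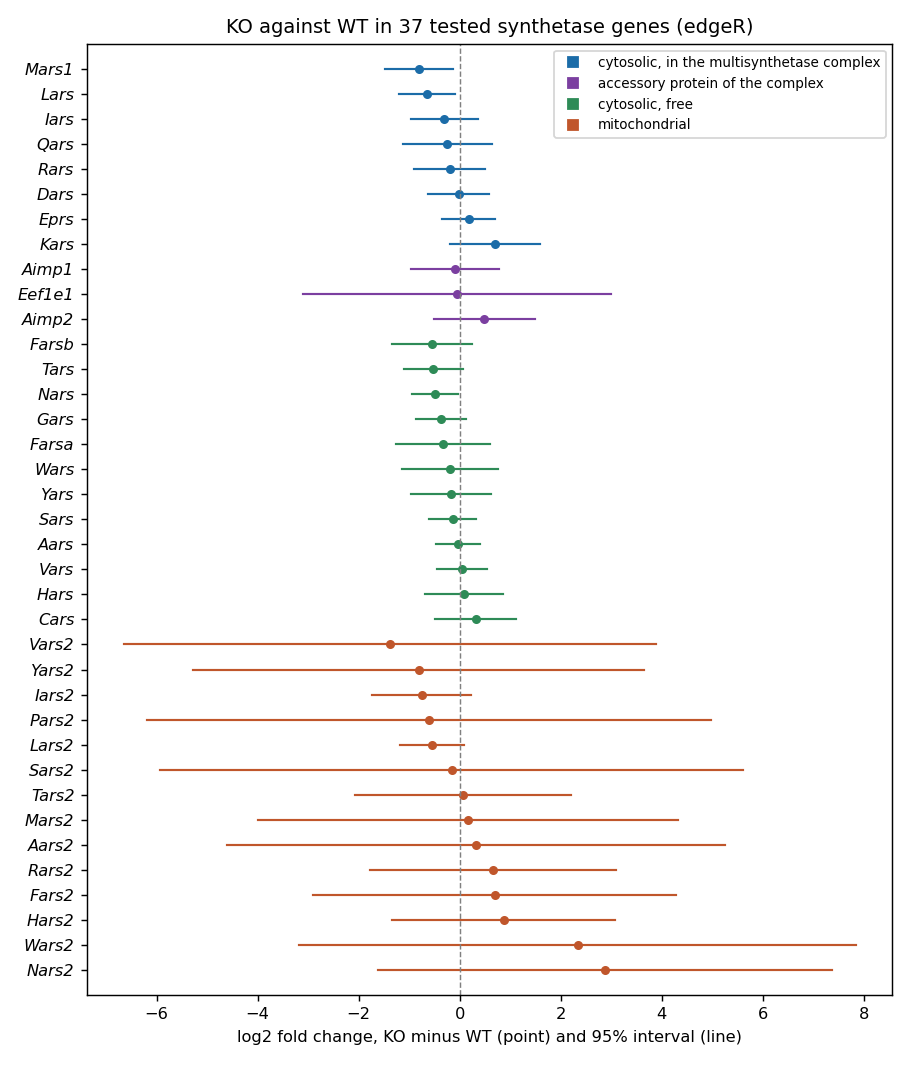
Log2 fold change, KO minus WT, of the 37 tested members (points) with 95% intervals (lines), grouped by class. The intervals of Mars1, Lars and Nars exclude 0 before adjustment over all genes, and those of most mitochondrial enzymes run past 2 units on either side.

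In the multisynthetase complex the enzymes divided into 6 negative and 2 positive point estimates, with a median of -0.22 and none called (5 and 3 with library totals, where Dars turned to 0.091). Mars1 (ENSMUSG00000040354, chromosome 10, 127296221 to 127311786), which charges both initiator and elongator tRNAs with methionine, had 263, 212 and 229.5 CPM in WT against 131, 100.2 and 171 CPM in KO. The groups did not overlap, and KO replicate 2 was lowest. Its log2 fold change was -0.81 (SE 0.32, 95% interval -1.48 to -0.13, edgeR adjusted p = 0.56), with means of 235 ± 25.8 CPM in WT against 134 ± 35.5 CPM in KO (SD, n = 3).

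Lars (ENSMUSG00000024493, chromosome 18, 42202298 to 42262194) encodes the leucyl enzyme, also known as a leucine sensor for mTORC1. Its levels were 298, 403 and 359 CPM in WT against 228, 259 and 190.5 CPM in KO, again without overlap. The log2 fold change was -0.65 (SE 0.26, 95% interval -1.20 to -0.091, edgeR adjusted p = 0.58). Across 14 other settings it ran from -0.75 to -0.53, and that of Mars1 from -1.03 to -0.63.

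Kars (chromosome 8, 111993443 to 112011323), the lysyl enzyme, had the highest point estimate of the cytosolic set. Its levels were 55.3, 193 and 232 CPM in WT against 275, 288 and 220.0 CPM in KO. WT replicate 1 was far below the others, and KO replicate 3 lay below WT replicate 3, so the groups overlapped. The log2 fold change of 0.70 (SE 0.42, edgeR adjusted p = 0.98) went to 0.29 without WT replicate 1.

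The densest members of the complex showed no separation. Dars (chromosome 1, 128363707 to 128417368) had 229.8, 289 and 204 CPM in WT against 244, 196 and 274 CPM in KO (log2 fold change -0.020, SE 0.28, 95% interval -0.62 to 0.58). Eprs (chromosome 1, 185363044 to 185428360) had 615, 660.1 and 536.5 CPM in WT against 751, 424 and 867 CPM in KO, with the KO libraries on both sides of all WT libraries (log2 fold change 0.17, SE 0.25). The intervals of both lie within a 2-fold change in either direction. The isoleucyl, glutaminyl and arginyl enzymes Iars, Qars and Rars had log2 fold changes of -0.30 (SE 0.31), -0.25 (SE 0.41) and -0.20 (SE 0.33).

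The 3 scaffold proteins had overlapping groups. Aimp1 (chromosome 3, 132660499 to 132684370) had 83.9, 140.4 and 94.2 CPM in WT against 100.6, 108 and 89.97 CPM in KO (log2 fold change -0.093, SE 0.41). Aimp2 (chromosome 5, 143902704 to 143909847), which docks the lysyl enzyme, had 57.8, 89.9 and 69.4 CPM in WT against 144, 68.1 and 91.8 CPM in KO, where KO replicate 1 was highest (log2 fold change 0.49, SE 0.47). Eef1e1 (chromosome 13, 38644207 to 38659058) had WT counts of 44, 69 and 9 and KO counts of 45, 73 and 49, low in 2 libraries, and its log2 fold change of -0.055 has a standard error of 1.43. With the scaffold proteins the 11 complex members had a median of -0.093, which was 0.022 with library totals and 0.13 without WT replicate 2.

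Among the 12 free enzymes 9 point estimates were negative and 3 positive, with a median of -0.18 against -0.22 for the complex enzymes, and with library totals 8 were negative and 4 positive. Nars (ENSMUSG00000024587, chromosome 18, 64499647 to 64516652) had 596.5, 582 and 501 CPM in WT against 375, 368 and 458 CPM in KO. The groups did not overlap, with WT replicate 3 the lowest of WT and KO replicate 3 the highest of KO. Its log2 fold change was -0.48 (SE 0.21, 95% interval -0.94 to -0.029, edgeR adjusted p = 0.70).

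Tars (chromosome 15, 11382301 to 11399665), the threonyl enzyme, had 264.5, 305 and 414.5 CPM in WT against 192, 265 and 228 CPM in KO. KO replicate 2 lay just above WT replicate 1, so the groups overlapped (log2 fold change -0.52, SE 0.27, edgeR adjusted p = 0.88). Gars (chromosome 6, 55038007 to 55079500), whose product serves both compartments, had 468, 622 and 465 CPM in WT against 454, 427 and 318 CPM in KO. Its groups were separated by a narrow gap (log2 fold change -0.37, SE 0.23, 95% interval -0.87 to 0.12).

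Sars (chromosome 3, 108424865 to 108445209) had 467, 503 and 606.5 CPM in WT against 567, 402 and 459 CPM in KO, overlapping groups with a log2 fold change of -0.14 (SE 0.22). Aars (chromosome 8, 111033144 to 111057664) had the smallest standard error of all members, 0.20, and a log2 fold change of -0.039 with a 95% interval of -0.48 to 0.40. The subunits of the phenylalanyl enzyme were both negative, Farsa at -0.33 (SE 0.44) and Farsb at -0.55 (SE 0.37). The remaining free enzymes ran from -0.19 for Wars (tryptophanyl) through -0.17 for Yars (tyrosyl), 0.036 for Vars (valyl) and 0.075 for Hars (histidyl) to 0.32 for Cars.

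**Figure D4:**
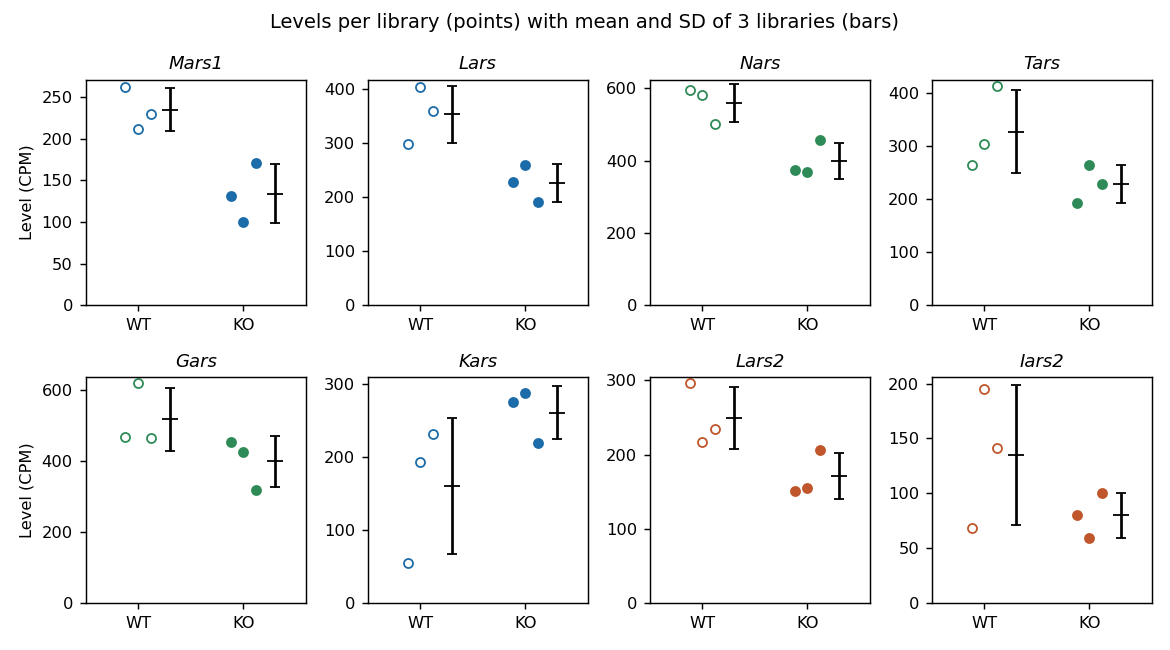
Levels in CPM of 8 members in each library (open WT, filled KO), with the mean and SD of 3 libraries as bars beside the points; each panel starts at 0 and has its own scale. KO points lie below all WT points for Mars1, Lars, Nars, Gars and Lars2 and overlap with WT for Tars, Kars and Iars2.

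The cytosolic set was measured closely enough to bound the change of many genes. For 11 of the 20 cytosolic enzymes the 95% interval lay within a 2-fold change in either direction, and the standard error had a median of 0.31. The coefficient of variation between libraries had a median of 17.7% in WT against 21.7% in KO. No cytosolic value was low in any of the 120 combinations of gene and library.

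The mitochondrial enzymes were too sparse for their direction to be read. Of 16 genes 14 were tested, 8 with positive and 6 with negative point estimates, and the median of 0.11 became -0.43 with the replicate number as a block and ran from -0.15 without WT replicate 1 to 0.55 without WT replicate 2. Cars2 and Ears2 did not pass the count filter, with Cars2 WT counts of 5, 6 and 1 and KO counts of 0, 0 and 63. Of 96 values 15 were 0, spread over 9 genes, and 50 were low, and the coefficient of variation had a median of 79.6% in WT against 95.4% in KO. All 14 intervals included 0, none lay within a 2-fold change, and the median standard error was 2.02.

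**Figure D5:**
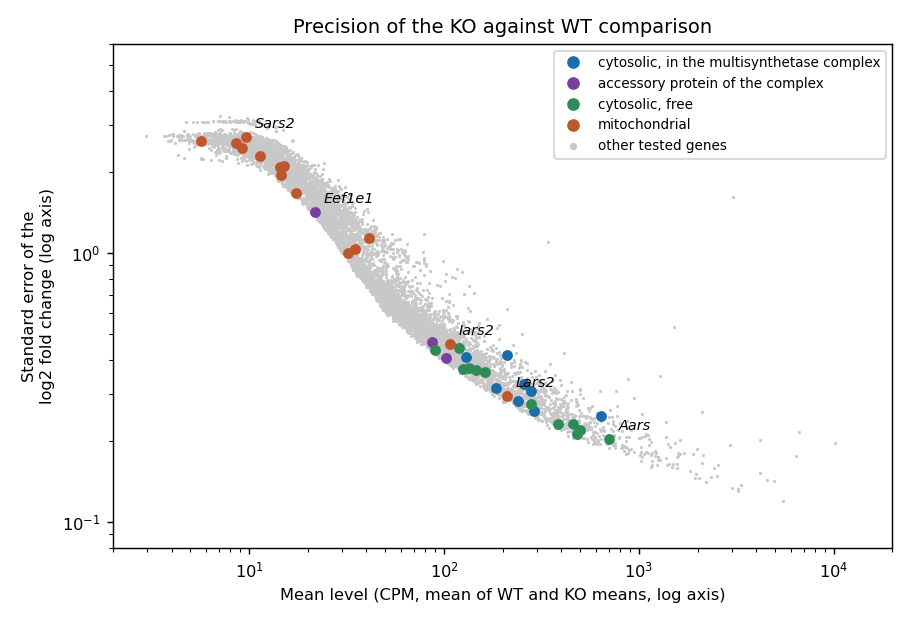
Standard error of the log2 fold change (log axis) against the mean level in CPM (log axis) for the members, by class, and for all other tested genes in grey. Cytosolic enzymes lie at standard errors of 0.20 to 0.44, and mitochondrial enzymes other than Lars2 (0.29) and Iars2 (0.46) at 1.0 or above.

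Of the mitochondrial genes, Lars2 and Iars2 had standard errors near those of the cytosolic set. Lars2 (ENSMUSG00000035202, chromosome 9, 123366927 to 123462666) had 296, 217 and 235 CPM in WT against 151, 155 and 206 CPM in KO. The groups did not overlap, and the log2 fold change was -0.55 (SE 0.29, 95% interval -1.18 to 0.082, edgeR adjusted p = 0.90). Gm15564, which shares the stretch described above, was also lower in every KO library than in any WT library (log2 fold change -0.78, SE 0.24, edgeR adjusted p = 0.39).

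Iars2 (chromosome 1, 185284726 to 185329396) had 68.1, 195 and 142 CPM in WT against 80.0, 59.1 and 100.2 CPM in KO. WT replicate 1 lay among the KO libraries (log2 fold change -0.76, SE 0.46), and without WT replicate 2 the value was -0.39. Nars2, the mitochondrial asparaginyl enzyme, had the highest point estimate of all members at 2.88 (SE 2.10), on WT counts of 7, 13 and 0 and KO counts of 106, 14 and 106. WT replicate 2 and KO replicate 2 were nearly equal and both low, so no size is read from it.

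Other mitochondrial genes had counts that differed widely within a group. Rars2 (arginyl) had WT counts of 31, 88 and 57 and KO counts of 240, 134 and 1, and Sars2 had 42, 10 and 0 in WT against 0, 64 and 0 in KO. Hars2 (histidyl) had 48, 87 and 3 in WT against 105, 103 and 164 in KO. Sars2 was at 0 in 3 of 6 libraries, and KO replicate 3 of Rars2 and WT replicate 3 of Hars2 held almost no counts. The log2 fold changes were 0.66 (SE 1.14), -0.16 (SE 2.70) and 0.87 (SE 1.03).

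Summed over genes, the ratio of cytosolic to mitochondrial footprints overlapped between the groups. Gars and Kars, which supply both compartments, were counted wholly as cytosolic, so the ratio compares gene lists and not compartments. Gars averaged 518 CPM in WT against 400 CPM in KO, and Kars 160 CPM in WT against 261 CPM in KO. The cytosolic enzymes together held 5734, 6692 and 6040 CPM in WT against 5748, 5018 and 5677 CPM in KO, and the mitochondrial ones 555, 669 and 488 CPM in WT against 555.5, 445 and 518 CPM in KO. The ratio of these sums was 10.9 ± 1.29 in WT against 10.9 ± 0.47 in KO (SD, n = 3), from 10.01 to 12.4 and from 10.3 to 11.3. Lars2 alone gave 27.1% to 53.3% of the mitochondrial sum, and without it the ratio was 20.3 ± 4.795 in WT against 16.6 ± 2.10 in KO, with overlapping groups. All 39 genes together took 0.593% to 0.710% of the counts of a library.

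Synthetases known as ATF4 targets and the other cytosolic enzymes had fold changes in overlapping ranges. Of 12 such genes 10 had negative point estimates, with a median of -0.25, against 5 of 8 and a median of -0.11 for the other cytosolic enzymes, and 0 were called in either group. With library totals 9 of the 12 were negative. Every KO library lay below every WT library in 4 of the 12 and in 0 of the 8, against 7.93% of all tested genes. An unadjusted edgeR p under 0.05 was reached by 3 of the 12 and 0 of the 8, against 6.49% of all tested genes. The difference between the lists was not tested. The 12 include all 5 genes with a promoter match, which are therefore no separate comparison. The 5 genes with the promoter match shown above were all negative, at -0.30 (Iars), -0.039 (Aars), -0.37 (Gars), -0.52 (Tars) and -0.17 (Yars), except that Aars turned to 0.068 with library totals, and each interval included 0. The 8 cytosolic enzymes with a promoter entry and no match had a median of -0.19, 6 of them negative.

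Among Atf4 and its targets outside the synthetases, none was called. Of 31 listed genes 27 were tested, 0 were called, 16 were negative and the median was -0.36. Ddit4, an inhibitor of mTORC1, had 103, 138 and 100.0 CPM in WT against 18.7, 20.1 and 22.6 CPM in KO (log2 fold change -2.47, SE 0.53, edgeR adjusted p = 0.065). Asns, which makes asparagine, the substrate of Nars, had 472, 492 and 340.0 CPM in WT against 112, 237 and 143 CPM in KO (log2 fold change -1.41, SE 0.31, edgeR adjusted p = 0.069). Neither overlapped between the groups, and both had point estimates larger in size than any of the 12 synthetases listed as ATF4 targets.

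Atf4 had 464, 362 and 317 CPM in WT against 176, 187.5 and 172.5 CPM in KO (log2 fold change -1.09, SE 0.26, edgeR adjusted p = 0.11). Slc38a2, an amino acid transporter, stood at -0.47 (SE 0.19). In 6 of the 27 tested genes every KO library lay below every WT library and in 1 above, against 7.93% and 6.94% of all tested genes. Match counts in this list were 8 of 26 promoters with an entry (30.8%).

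Genes that make, mature or carry tRNA gave no call either. Of 39 listed genes 38 were found and 31 tested, with 18 negative (16 with library totals), a median of -0.14 and 0 called. Ssb, the La protein that binds new polymerase III transcripts, had 798, 735.5 and 577 CPM in WT against 499, 456 and 468 CPM in KO, without overlap (log2 fold change -0.57, SE 0.20, edgeR adjusted p = 0.51). Pop1, a subunit of RNase P, stood at -1.56 (SE 0.62), Pop4, another subunit, at 2.16 (SE 1.58), and Xpo5, an exporter of small RNAs that also binds tRNA, at 0.45 (SE 0.31).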

How the data were processed

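Ribosome-protected fragments of 3 WT and 3 KO libraries of ID8 cells were grouped by their titles. Per the labels' protocols, reads of 25 to 34 nt were kept, Bowtie took out rRNA and tRNA reads, and HISAT2 (genome, GRCm38) and Bowtie (transcriptome) aligned what was left. Further tools in the submitters' processing notes are cutadapt, featureCounts and DESeq2. The annotation, the strand setting and the handling of duplicates and of reads with several matches were not given in the sources used here. The authors deposited whole-number counts per Ensembl gene, not normalized; 53360 of 53465 identifiers matched GENCODE M21.

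Groups were compared with edgeR 4.0.16 (R 4.3.3; quasi-likelihood, robust, TMM, filterByExpr, group only), Benjamini-Hochberg over all 8200 tested genes, called at adjusted p under 0.05. The pipeline was tested on simulated data. Density used the median coding length over a gene's complete coding transcripts. The modal count was the highest interior peak of the histogram of gene counts from 8 to 150, smoothed with a bandwidth of 3. Each gene's group mean was subtracted from its log levels, and the remaining deviations were correlated between same-numbered WT and KO libraries. The correlations were -0.017, -0.0026 and -0.0067 for numbers 1, 2 and 3, so replicate numbers were not used as pairs.

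Members and lists were chosen with earlier results of these data known, so no list was tested and no p adjusted over it. Values in every library are given for the 3 members of each class with the smallest p and the 2 with the highest density; those of Hars2, Rars2, Sars2, Cars2 and Ears2 were chosen after their values were seen, as was the setting without Gm42418 and Gm26917. For other lists up to 4 genes with the smallest p are named. Alternatives were DESeq2 1.42.0, its size factors or library totals in edgeR, 2 other count filters, counts divided by the modal count, a replicate block and leaving out each library. Python 3.11.15, pandas 2.3.3 and matplotlib 3.10.9 were used for tables and plots. Besides the promoter matches shown, 1 further match is not reported here.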

Additional observations from a re-analysis of the deposited data

How the results depend on the processing

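No member was called under any of 14 alternatives, where the lowest adjusted p was 0.14 (Kars, counts divided by the modal count, rounded up). Over all genes the number called was 234 with DESeq2, 91 with no count filter and 97 on counts divided by the modal count. Without single libraries it ran from 6 to 29: leaving out WT replicate 1 gave 29, leaving out WT replicate 2 or WT replicate 3 gave 6, and leaving out KO replicates 1, 2 and 3 in turn gave 15, 20 and 18. With the replicate block it was 38, and 0 members were called; same-numbered libraries did not deviate together.

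The sign of the log2 fold change was kept in every alternative that tested the gene by 12 of 20 cytosolic enzymes, 1 of 3 accessory proteins and 7 of 14 mitochondrial enzymes. The cytosolic median stayed negative, from -0.30 without WT replicate 3 to -0.092 with library totals. The mitochondrial median went to -0.43 with the block and, without single libraries, from -0.15 without WT replicate 1 to 0.55 without WT replicate 2. Nat10 became 0.027 with library totals and ran from -0.35 to 0.35 without single libraries.

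Reversed values with library totals were 0.091 for Dars, 0.022 for Aimp1, 0.063 for Eef1e1 and 0.068 for Aars. Dars was 0.013 with DESeq2, 0.0089 with its size factors and 0.0025 with the filter of 50 counts in 3 libraries, and Aars 0.010 on counts divided by the modal count. With the replicate block Eef1e1 was 0.24, Mars2 -0.60 and Rars2 -0.30. The cause was not tested.

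Without single libraries the ranges of the genes that reversed were -0.14 to 0.13 for Dars, -0.043 to 0.43 for Eprs, -0.55 to 0.032 for Qars, -0.52 to 0.084 for Rars, -0.24 to 0.16 for Aimp1, -0.52 to 0.41 for Eef1e1, -0.18 to 0.13 for Aars, -0.15 to 0.35 for Hars, -0.058 to 0.14 for Vars and -0.53 to 0.13 for Wars. Of the mitochondrial genes they were -0.61 to 0.91 for Aars2, -0.100 to 1.38 for Fars2, -1.56 to 0.81 for Mars2, -6.82 to 0.56 for Pars2, -0.15 to 1.24 for Rars2, -7.51 to 1.84 for Sars2 and -0.28 to 1.01 for Tars2. Densities kept within 1 SD with library totals for 39 of 39 genes, and with the longest coding transcript for all but Dars. Of 96 mitochondrial values 50 lay under the modal count of their library.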
